A study of Arabidopsis thaliana with 5 samples.

Results

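Transcript levels of 9 genes that place stomatal divisions in the Arabidopsis thaliana leaf epidermis were described in sorted cells of the hdl mutant and wild type (WT). They are the polarity factor genes BASL, POLAR and BRXL2, the mitogen-activated protein kinase (MAPK) cascade genes YDA, MKK4, MKK5, MPK3 and MPK6, and the phosphatase gene BSL1. The genes were taken by identifier, with earlier results of these data known, and all 9 were found among the 24200 genes of the deposited table. The series holds 2 hdl and 3 WT libraries. The hdl libraries come from seedlings of the single allele hdl-1, a mutant of the gene HOMEODOMAIN-LIKE, and the WT libraries from seedlings without it. Both groups were 9 days post germination and carried AtML1pro:RCI2A-mcherry, a red membrane reporter driven by the promoter of an epidermal gene, by which about 20000 protoplasts per sample were sorted. Seeds were stratified for 2 days and seedlings grown in long days on 1/2 MS medium, and all libraries carry batch number 1. It is not stated whether the libraries of a genotype are independent plantings, and the spread on which every p-value rests may therefore be technical.

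Most stomata arise from asymmetric divisions in which the smaller daughter continues the lineage. BASL gathers in a crescent at the cell edge away from the coming division, together with POLAR and members of the BRX family, and recruits YDA, a MAPK kinase kinase. YDA acts through MKK4 and MKK5 on MPK3 and MPK6, which phosphorylate the transcription factor SPCH and so limit entry into the lineage. BSL1, a phosphatase of the BSU1 family, joins the crescent around division, and POLAR holds GSK3-like kinases such as BIN2 there.

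The sequences just upstream of BASL, POLAR and BRXL2 are shown because both hdl libraries lay below every WT library for these genes. The same held for 26.9% of all tested genes, and BASL had few reads in any library. The choice therefore does not mark them as a regulated set. Each window ends at the base before the annotated gene start in the RefSeq annotation of TAIR10.1, is read 5′ to 3′ on the gene's strand, and has matches to the E-box CANNTG, the class of site bound by bHLH proteins such as SPCH, in capitals. The BASL window is chr5:24489837-24490086 on the minus strand, the BRXL2 window chr3:4634082-4634331 on the minus strand, and the POLAR window chr4:15385101-15385279 on the plus strand. The POLAR window was shortened to 179 bases to leave out the neighbouring gene AT4G31800.
BASL: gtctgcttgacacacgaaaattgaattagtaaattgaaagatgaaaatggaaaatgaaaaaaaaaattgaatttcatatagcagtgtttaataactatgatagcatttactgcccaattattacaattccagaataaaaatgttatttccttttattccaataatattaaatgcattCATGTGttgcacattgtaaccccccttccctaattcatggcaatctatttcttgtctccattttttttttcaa
POLAR: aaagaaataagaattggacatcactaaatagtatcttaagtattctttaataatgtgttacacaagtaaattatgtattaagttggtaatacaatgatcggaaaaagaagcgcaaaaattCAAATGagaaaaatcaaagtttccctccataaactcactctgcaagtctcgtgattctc
BRXL2: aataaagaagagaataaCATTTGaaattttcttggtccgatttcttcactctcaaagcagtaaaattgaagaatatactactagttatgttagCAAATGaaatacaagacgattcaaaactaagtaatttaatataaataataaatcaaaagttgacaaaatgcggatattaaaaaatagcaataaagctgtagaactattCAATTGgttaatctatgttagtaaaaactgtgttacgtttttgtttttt
An E-box was found once upstream of BASL, once upstream of POLAR and 3 times upstream of BRXL2. Over all 9 genes 6 windows held one, and 55.8% of 23523 protein-coding genes of the table had one in the 250 bases before their start. The E-box reads alike on both strands, and a match is not evidence of binding.

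Levels are the authors' DESeq2-normalized counts per library, tested over 20391 genes with limma on log2(value + 1), and a gene was called at a Benjamini-Hochberg adjusted p under 0.05. Per library 15418154 to 22838239 reads were recovered from the table. Of the 9 genes, all of which were tested, POLAR and BRXL2 were called lower in hdl, and 0 were called higher. Among all tested genes 4.5% were called lower and 8.21% higher, 12.7% in all, so the 2 of 9 are to be read against this background. At an unadjusted p under 0.05 limma had 2 of the 9 lower and 2 higher, against 15.4% lower and 16.6% higher of all genes. edgeR called 2 of the 9 lower and 0 higher, against 4.08% and 7.97% of all genes, and DESeq2 called 2 lower and 1 higher, against 10.6% and 12.8%. The median log2 change of the 9 genes was 0.04, against -0.05 over all tested genes. The hdl and WT libraries did not overlap for 7 of the 9 genes, with hdl above WT for 4 and below WT for 3. Among all tested genes they did not overlap for 53.6%, with hdl above for 26.7% and below for 26.9%, so separation of the groups is common in these libraries.

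All calls rest on few libraries. Without hdl replicate 1, limma called 0 genes of any kind in a fit that lets the lone hdl library share the spread of WT. It called 427 genes without WT replicate 3, 980 without WT replicate 1, 1647 without hdl replicate 2 and 5869 without WT replicate 2, against 2591 with all libraries. Normalized counts summed to more in hdl than in WT, so scaling the libraries to equal totals moved the median log2 change of all genes to -0.37. The authors' normalization is the base of every value below. The direction for YDA, MKK4, MPK6 and BSL1 turned with equal totals and is therefore not read as a difference.

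**Figure D1:**
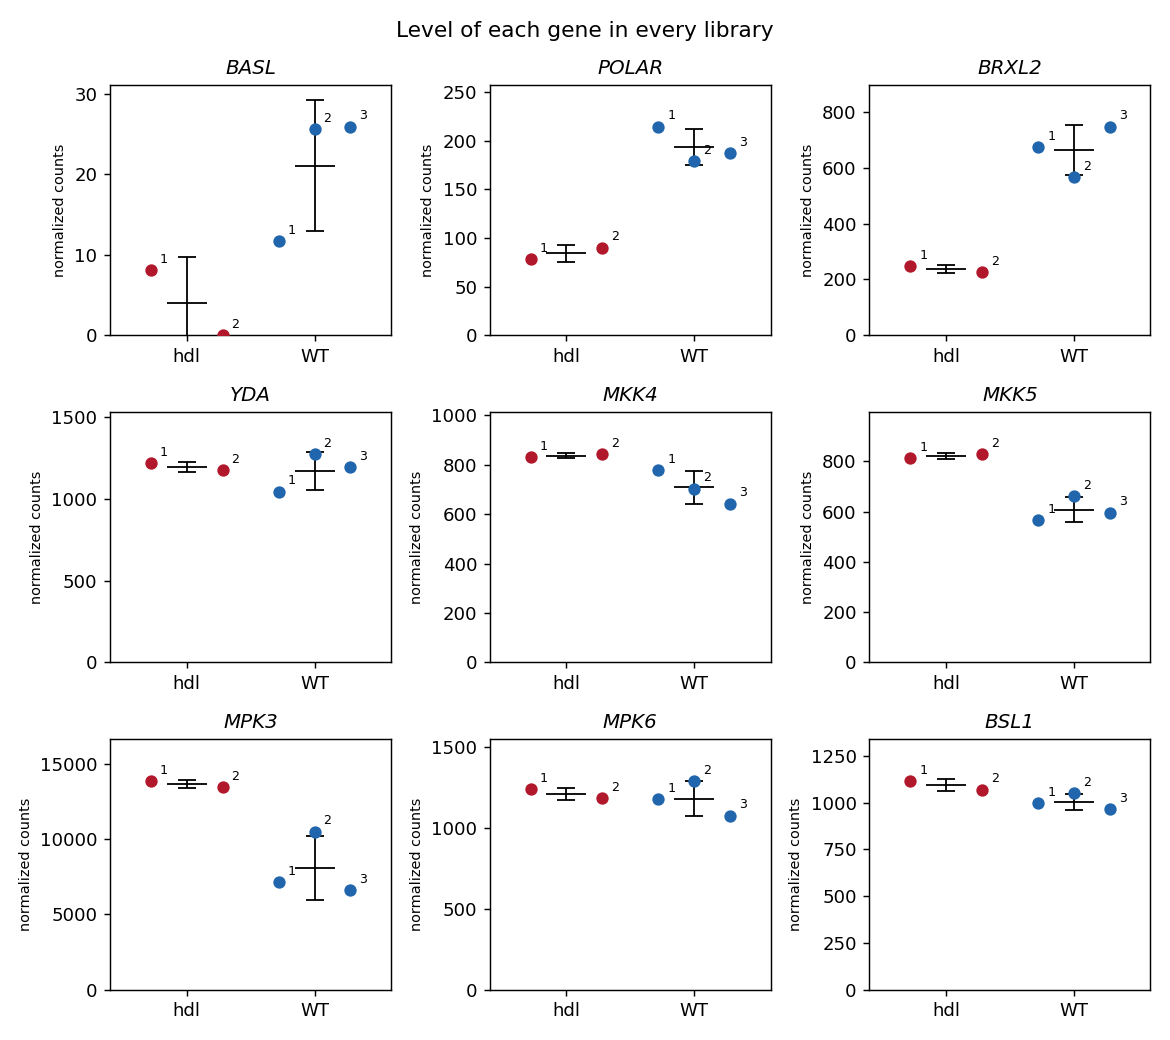
Normalized counts (vertical axes, from 0) of each of the 9 genes in the 2 hdl (red) and 3 WT (blue) libraries, numbered by replicate; black lines and bars are the mean and SD, cut at 0 for BASL in hdl. POLAR and BRXL2 are lower in both hdl libraries than in any WT library and were called, BASL is near 0, and MPK3 is higher in both hdl libraries without being called.

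Among the polarity factors, BRXL2 and POLAR fell and BASL was too scarce to judge. BRXL2 (AT3G14000, TAIR10.1 chromosome 3, 4630865 to 4634081, minus strand) encodes a BRX-domain protein that partners BASL in the crescent. It had 246.9 and 227.3 normalized counts in the hdl libraries, against 673.6, 567.5 and 747.2 in the WT libraries. Both hdl libraries lay far below the lowest WT library. The means were 237.1 ± 13.8 in hdl (SD, n = 2), against 662.8 ± 90.4 in WT (SD, n = 3), 0.358 of the WT level, a log2 change of -1.47 ± 0.19 (SE, limma adjusted p = 0.00961). Its call was lost without WT replicate 3 (limma adjusted p = 0.0552) and without hdl replicate 1 (limma adjusted p = 0.0813), while the log2 change stayed between -1.79 and -1.38 under every setting tried.

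POLAR (AT4G31805, chromosome 4, 15385280 to 15387097, plus strand) encodes a scaffold that is found in dividing lineage cells and marks the same pole as BASL. Its normalized counts were 78.2 and 90.2 in the hdl libraries, against 214.3, 179.3 and 186.8 in the WT libraries. The hdl values again lay below all WT values. The mean was 84.2 ± 8.44 in hdl (SD, n = 2), against 193.5 ± 18.4 in WT (SD, n = 3), 0.435 of the WT level, a log2 change of -1.19 ± 0.26 (SE, limma adjusted p = 0.0341). POLAR lost its call when WT replicate 1, WT replicate 3, hdl replicate 1 or hdl replicate 2 was left out, at limma adjusted p-values of 0.114, 0.118, 0.168 and 0.0736. POLAR shares 310 bases with AT4G31810 on the opposite strand, and no source says that reads were counted by strand. That neighbour had 175.4 and 133.4 normalized counts in hdl and 157.0, 198.6 and 220.2 in WT, and did not pass.

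BASL (AT5G60880, chromosome 5, 24488289 to 24489836, minus strand), the founding crescent protein of the lineage, was barely detected. It had 8.09 and 0 normalized counts in the hdl libraries, against 11.7, 25.6 and 25.9 in the WT libraries, which came from 6 and 0 recovered reads in hdl and 11, 20 and 31 in WT. In normalized counts the exact 95% Poisson limits, which cover counting error only, run between 2.97 and 17.6 for hdl replicate 1, against 5.82 and 20.9 for WT replicate 1, 15.6 and 39.6 for WT replicate 2, and 17.6 and 36.7 for WT replicate 3. The limits of hdl replicate 1 thus overlap those of WT replicates 1 and 2 and meet those of WT replicate 3. In a single library a step may stand for 2 counts of the authors, and the files do not settle which library. If it is hdl replicate 1, its limits are 4.18 and 14.1 and overlap those of WT replicate 1 alone. If it is a WT library, the limits are 7.31 and 17.7 for replicate 1, 18.3 and 34.9 for replicate 2, or 19.8 and 33.1 for replicate 3. Taking 3 reads as the limit that a count of 0 allows, hdl replicate 2 held up to 3.71 normalized counts, below the lower limit of every WT library. The log2 change of -2.79 ± 1.2 (SE) did not pass (limma adjusted p = 0.169), and its 95% interval of -5.69 to 0.11 reaches from a near loss to no difference. The value moved to -1.2 without hdl replicate 2 and to -4.38 without hdl replicate 1, so its size is not settled at this depth. BASL passed the filter on low values through its WT libraries.

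**Figure D2:**
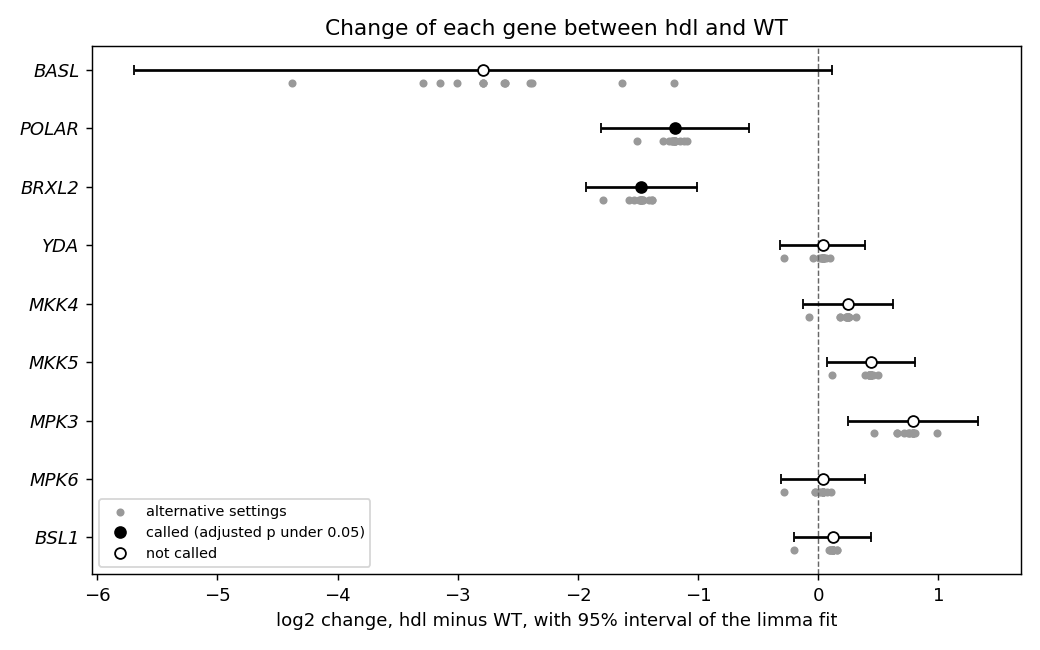
Log2 change between hdl and WT (horizontal axis; negative is lower in hdl) of each of the 9 genes in the limma fit with its 95% interval, filled where called; grey points are the same change under the alternative settings. The intervals of BRXL2 (-1.93 to -1.01) and POLAR (-1.81 to -0.57) lie below 0, and YDA and MPK6 sit at 0.04 each, with equal totals turning YDA, MKK4, MPK6 and BSL1 negative.

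Of the 5 cascade genes limma called 0 and edgeR 0, and DESeq2 called MPK3 higher. MPK3 and MKK5 were higher in limma at an unadjusted p under 0.05. The shares of all tested genes called higher and lower were 8.21% and 4.5% with limma and 7.97% and 4.08% with edgeR. DESeq2 called 12.8% higher, and 16.6% were higher in limma at an unadjusted p under 0.05. Counts among 5 genes do not set the cascade apart from these shares. YDA (AT1G63700, chromosome 1, 23624627 to 23630073, minus strand) had 1220.9 and 1176.0 normalized counts in the hdl libraries, against 1045.9, 1277.2 and 1195.9 in the WT libraries. The groups overlapped, with WT replicate 2 highest and WT replicate 1 lowest. The log2 change was 0.04 ± 0.15 (SE, limma adjusted p = 0.888), and the 95% interval allows from 0.80 to 1.31 times the WT level. A difference as large as that of BRXL2 lies outside this interval.

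MKK4 (AT1G51660, chromosome 1, 19154323 to 19156338, plus strand, a single exon) and MKK5 (AT3G21220, chromosome 3, 7445604 to 7448498, plus strand) encode closely related MAPK kinases that act redundantly below YDA. MKK4 had 829.7 and 843.7 normalized counts in the hdl libraries, against 777.5, 703.3 and 642.2 in the WT libraries. MKK5 had 813.5 and 830.1 in the hdl libraries, against 565.4, 662.3 and 596.3 in the WT libraries. For each gene both hdl libraries lay above the WT range, but neither passed. The log2 change was 0.25 ± 0.15 (SE, limma adjusted p = 0.311) for MKK4 and 0.44 ± 0.15 (SE, limma adjusted p = 0.109) for MKK5. With equal totals MKK4 stood at -0.08 and MKK5 at 0.11. Without WT replicate 2, MKK5 was called at 0.50 (limma adjusted p = 0.0183). The longest run of identical bases between the longest annotated transcripts of MKK4 and MKK5 is 40, and the read length is not known here, so a share of reads from these conserved stretches is uncertain. MKK5 overlaps 459 bases of 4CL5, a gene of phenylpropanoid synthesis on the opposite strand.

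MPK3 (AT3G45640, chromosome 3, 16756571 to 16758874, plus strand), a stress-responsive MAPK as well as a stomatal one, was the most abundant of the 9 genes. It had 13872.3 and 13472.4 normalized counts in the hdl libraries, against 7153.7, 10503.1 and 6599.1 in the WT libraries. Both hdl libraries exceeded all WT libraries, and WT replicate 2 stood above the other two. The mean was 13672.4 ± 282.8 in hdl (SD, n = 2), against 8085.3 ± 2112.2 in WT (SD, n = 3), 1.69 times the WT level. The log2 change of 0.79 ± 0.22 (SE) did not pass (limma adjusted p = 0.069). Its 95% interval, not adjusted for the number of genes, was 0.25 to 1.33. MPK3 was called with DESeq2 (0.76, adjusted p = 0.0182) and, by limma, without WT replicate 2 (0.99, adjusted p = 0.0006), but not with edgeR (0.75, adjusted p = 0.0822).

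Genes of wounding and early stress were set beside MPK3. Of 7 such genes 3 were called higher and 0 lower by limma, with edgeR also at 0 lower and DESeq2 at 0 lower. Among all tested genes limma called 8.21% higher and 4.5% lower. At an unadjusted p under 0.05, 5 were higher and 0 lower, against 16.6% and 15.4% of all tested genes. Their summed normalized counts ranged from 75602 to 78384 in hdl and from 44574 to 66838 in WT, with WT replicate 2 at the top of the WT range. The called genes were VSP2 at 3.11, ZAT10 at 0.87 and WRKY53 at 0.86 on the log2 scale. ZAT12 at -0.18 and FRK1 at -0.82 pointed the other way and did not pass. The list's part in the MPK3 value was not tested. All libraries were made from protoplasts, whose preparation wounds tissue.

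MPK6 (AT2G43790, chromosome 2, 18138246 to 18140988, plus strand), the partner kinase of MPK3, had 1238.4 and 1184.7 normalized counts in the hdl libraries, against 1177.4, 1290.0 and 1076.6 in the WT libraries. The hdl values fell inside the WT range. The log2 change was 0.04 ± 0.14 (SE, limma adjusted p = 0.87), with a 95% interval from 0.808 to 1.31 times the WT level. MPK3 and MPK6 share no identical run longer than 14 bases in their longest transcripts. MPK3 overlaps the opposite-strand gene AT3G45645 by 192 bases, and MPK6 overlaps AT2G09500 and AT2G43795 by 267 and 45 bases.

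BSL1 (AT4G03080, chromosome 4, 1359655 to 1365498, minus strand) had 1115.7 and 1069.8 normalized counts in the hdl libraries, against 997.1, 1049.2 and 967.4 in the WT libraries. The hdl libraries lay just above the WT libraries. The log2 change of 0.12 ± 0.13 (SE) did not pass (limma adjusted p = 0.558) and was -0.20 with equal totals. The 95% interval runs from 0.871 to 1.36 times the WT level. On the opposite strand AOP1 overlaps BSL1 by 44 bases and AT4G04425 by 277 bases.

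Levels can be compared between genes only per transcript length, here as normalized counts per kilobase of the longest annotated transcript. On that scale MPK3 had 7358.6 ± 152.2 in hdl (SD, n = 2), against 4351.6 ± 1136.8 in WT (SD, n = 3), above 98.6% of tested genes in hdl and 98.2% in WT. MPK6 came next with 706.9 ± 22.2 in hdl and 689.2 ± 62.3 in WT. MKK4 followed with 415.0 ± 4.93 in hdl and 351.0 ± 33.6 in WT. In WT the ranges of MKK4 and BRXL2, of BRXL2 and YDA, and of YDA and BSL1 overlapped, so these 4 genes stood at nearly the same level, between 274.9 and 385.7 in the single libraries. MKK5 was lower in WT, at 235.0 to 275.3. In hdl BRXL2 dropped out of that group to 110.1 and 119.6, while MKK5, BSL1 and YDA stood between 312.4 and 345.0, and only the ranges of MKK5 and BSL1 overlapped. BRXL2 was above 42.3% of tested genes in hdl and above 68.8% in WT. POLAR had 51.1 and 58.9 in hdl and 117.1 to 140.0 in WT, and BASL was last in both groups with 3.34 ± 4.73 in hdl and 17.4 ± 6.71 in WT. Low levels in bulk cells may mean few expressing cells or little RNA in each, which cannot be told apart here.

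**Figure D3:**
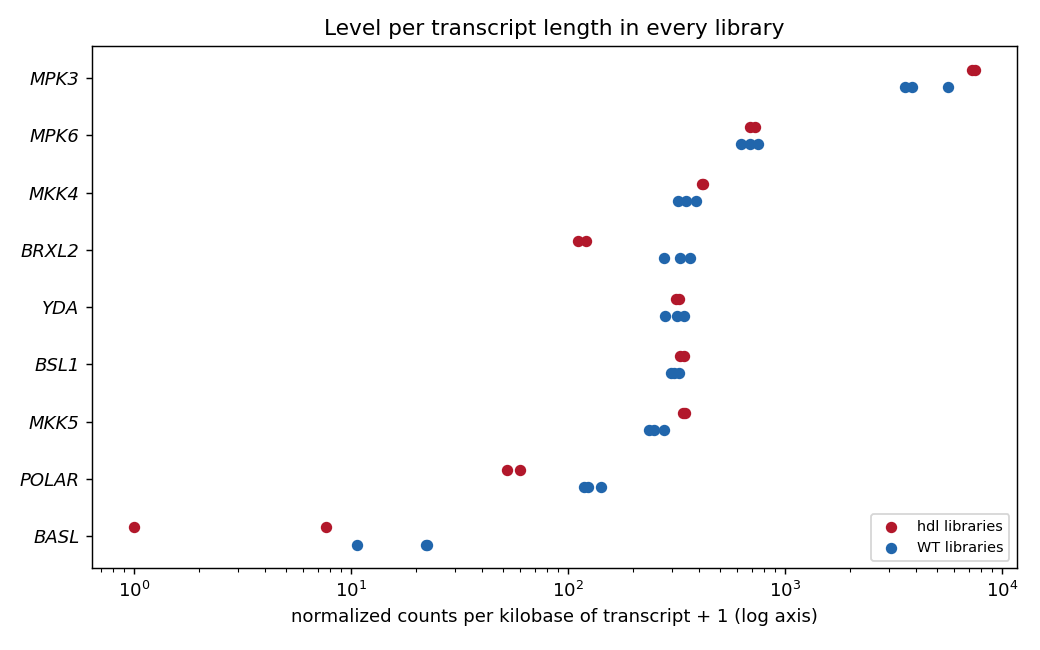
Normalized counts per kilobase of the longest transcript plus 1 (horizontal log axis) of the 9 genes in each hdl (red, upper row) and WT (blue, lower row) library, ordered by the WT mean. MPK3 is at 3551.7 or more in every library, and BRXL2 sits at 110.1 and 119.6 in hdl, against 274.9 to 362.0 in WT.

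The balance within each pair of redundant kinases was followed in each library. MPK3 exceeded MPK6 per length by 10.3 and 10.5 times in the hdl libraries, against 5.6, 7.51 and 5.65 times in the WT libraries. The hdl ratios lay above all WT ratios. The mean log2 ratio differed by 0.75, with p = 0.10 in an exact two-sided permutation test, the smallest value that 10 assignments of 5 libraries allow. MKK4 exceeded MKK5 by 1.22 and 1.21 times in the hdl libraries, against 1.64, 1.27 and 1.29 times in the WT libraries. That difference of -0.19 in the mean log2 ratio (exact two-sided permutation p = 0.30) was carried mostly by WT replicate 1 and was -0.07 without it. MPK3 made up 45.2% of the summed level per length of all 20 MAPK genes in each hdl library, against 30.8%, 35.0% and 29.0% in the WT libraries.

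**Figure D4:**
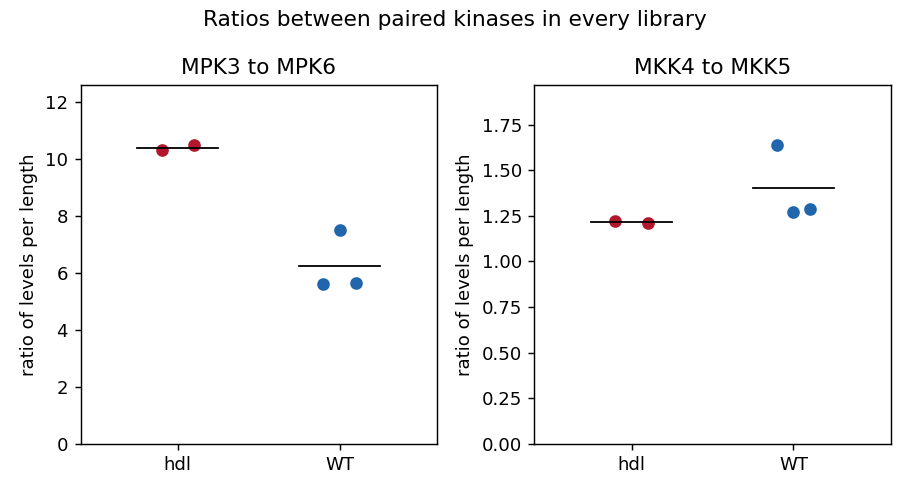
Ratio of levels per transcript length of MPK3 to MPK6 (left) and MKK4 to MKK5 (right) in each hdl (red) and WT (blue) library, vertical axes from 0, with the mean as a black line. The MPK3 to MPK6 ratio is 10.3 and 10.5 in hdl and 5.6 to 7.51 in WT.

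The wider families were described by 9 lists that hold 65 further genes, drawn up with earlier results of these data known. Of 61 that were tested, limma called 3 higher and 7 lower in hdl, with a median log2 change of -0.21, against 8.21% higher, 4.5% lower and a median of -0.05 over all tested genes. Of the BRX family 3 of 5 tested members, BRXL2 among them, were called lower and 0 higher (0 higher also with edgeR and DESeq2, and 0 at an unadjusted p under 0.05). BRX, the founding member known from root growth, had 326.5 and 312.5 normalized counts in the hdl libraries, against 911.2, 589.3 and 932.4 in the WT libraries, a log2 change of -1.31 (limma adjusted p = 0.023). BRXL4 had 393.9 and 387.9 in the hdl libraries, against 841.2, 746.8 and 759.7 in the WT libraries, a log2 change of -0.998 (limma adjusted p = 0.0141). For BRX, BRXL2, BRXL3 and BRXL4 both hdl libraries lay below all WT libraries, and for BRXL1 they overlapped. Among all tested genes 26.9% had every hdl library below every WT library. BRXL3 at -0.91 (limma adjusted p = 0.118) and BRXL1 at -0.19 (limma adjusted p = 0.623) did not pass. BRXL2 made up 16.8% and 15.1% of the family's summed level per length in the hdl libraries, against 19.7%, 20.6% and 22.7% in the WT libraries. Each of the 3 called members lost its call without hdl replicate 1 and without WT replicate 3. BRX and BRXL4 also lost theirs without WT replicate 1 (limma adjusted p = 0.0805 and 0.059) and without hdl replicate 2 (limma adjusted p = 0.0796 and 0.0621), so among these fits they were called only without WT replicate 2.

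The partners of the crescent that are phosphatases or GSK3-like kinases gave no calls. Of all tested genes limma called 12.7%, so 0 calls among so few genes does not set these partners apart. Among 4 BSU1-like phosphatases limma called 0, edgeR 0 and DESeq2 0, with 0 at an unadjusted p under 0.05. BSL2 stood at 0.20 (limma adjusted p = 0.419) and BSL3 at 0.32 (limma adjusted p = 0.188), and both were slightly negative with equal totals, at -0.13 and -0.003. Among 3 GSK3-like kinases limma, edgeR and DESeq2 each called 0. Against 16.6% of all tested genes, 1 was higher at an unadjusted p under 0.05 in limma. That was BIN2, with 4627.3 and 3964.1 normalized counts in the hdl libraries, against 3323.3, 3372.9 and 3314.2 in the WT libraries, a log2 change of 0.36 (limma adjusted p = 0.122). It was called without WT replicate 2 (limma adjusted p = 0.0354). BIL2 was at -0.14 (limma adjusted p = 0.58).

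Outside the YDA branch, other MAPK cascade genes included calls in both directions. The shares of all tested genes called higher and lower were 8.21% and 4.5% with limma and 12.8% and 10.6% with DESeq2. In limma 16.6% were higher and 15.4% lower at an unadjusted p under 0.05. The small counts below are to be read against these shares. Among 9 MAPK kinase kinases limma called 0 and edgeR 0, DESeq2 called 2 lower, and 2 were lower at an unadjusted p under 0.05. The abundant MEKK1 was at 0.06 (limma adjusted p = 0.811) and MAPKKK5 at 0.02 (limma adjusted p = 0.927), and both turned negative with equal totals. Of 7 tested MAPK kinases limma called 1 lower, MKK6, and DESeq2 called 2 lower. MKK6 had 172.7 and 117.4 normalized counts in the hdl libraries, against 277.9, 299.8 and 348.6 in the WT libraries, a log2 change of -1.11 (limma adjusted p = 0.0424). MPK13, a MAPK that MKK6 activates, had 94.4 and 119.8 in the hdl libraries, against 375.5, 263.9 and 467.9 in the WT libraries, a log2 change of -1.75 (limma adjusted p = 0.0199). MKK6 is known from cytokinesis, where it acts below the ANP kinases and on MPK4. ANP1 at -1.28 (limma adjusted p = 0.0523), ANP2 at -0.86, ANP3 at -0.79 and MPK4 at -0.04 did not pass, and were picked with their values in view. Of 19 tested MAPKs limma called 1 higher, MPK15, and 1 lower, MPK13. DESeq2 called 3 of them higher, MPK3 included, and 2 lower. At an unadjusted p under 0.05 limma had 4 higher and 5 lower. MPK15 had 909.3 and 958.6 normalized counts in the hdl libraries, against 465.7, 491.9 and 400.3 in the WT libraries, a log2 change of 1.05 (limma adjusted p = 0.0153). Of 8 MAPK phosphatase genes AP2C1, which acts on stress-activated MAPKs, was called higher at 0.59 (limma adjusted p = 0.046), a call that edgeR did not make (adjusted p = 0.0599).

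Genes upstream and downstream of the cascade were set against all tested genes, of which limma called 8.21% higher and 4.5% lower. Of 9 tested receptors and membrane kinases 1 was called higher and 2 lower. TMM, the receptor-like protein of the lineage, had 78.2 and 116.1 normalized counts in the hdl libraries, against 246.1, 220.3 and 298.6 in the WT libraries, a log2 change of -1.40 (limma adjusted p = 0.0305). SERK1, a co-receptor, was at -1.10 (limma adjusted p = 0.0296), and BSK2, a receptor-like cytoplasmic kinase, at 1.40 (limma adjusted p = 0.0358). Of 4 tested transcription factors downstream, FAMA, which guides guard cell formation, fell by 1.98 on the log2 scale (limma adjusted p = 0.0206). TMM and FAMA were also called without hdl replicate 2, SERK1 and BSK2 were not, and none of these 4, nor MKK6, MPK13, MPK15 or AP2C1, was called without hdl replicate 1 or without WT replicate 3.

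**Figure D5:**
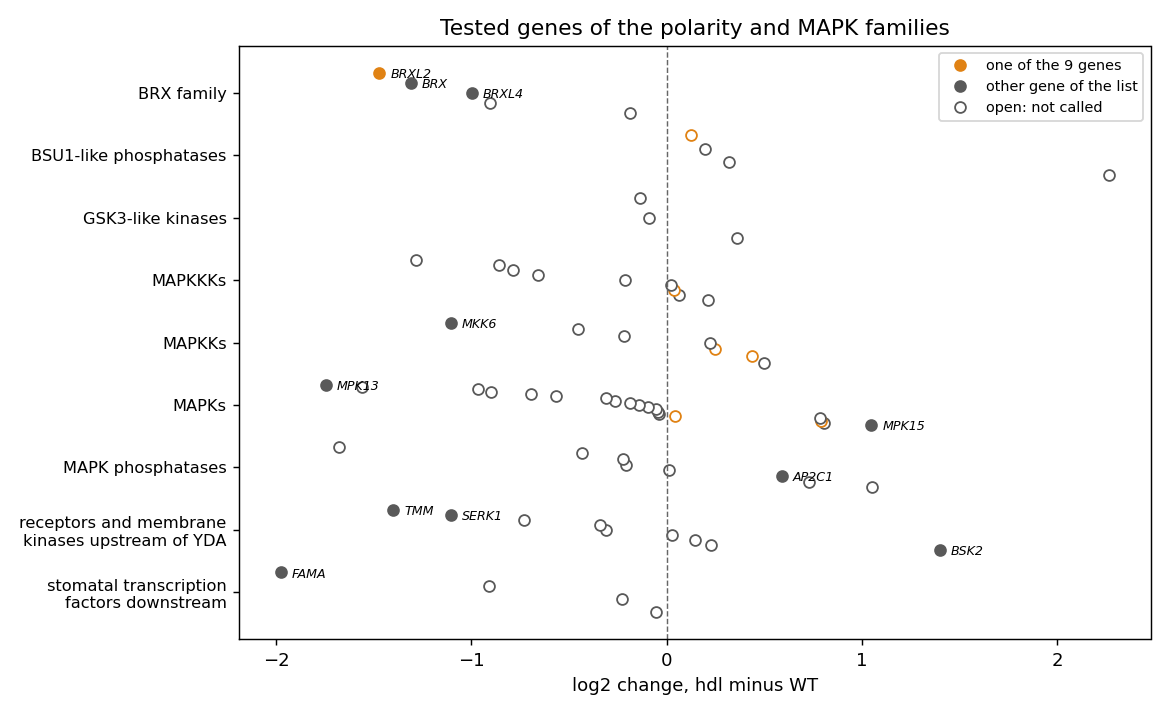
Log2 change between hdl and WT (horizontal axis; negative is lower in hdl) of every tested gene in the 9 family lists (rows), filled and named where limma called it; orange marks the 9 genes. Of the BRX family 3 of 5 were called lower, whereas the orange points of the MAPK rows are open.

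Markers of the stomatal lineage were set beside the polarity genes. Among all tested genes limma called 4.5% lower and 8.21% higher, with 15.4% lower and 16.6% higher at an unadjusted p under 0.05. Of 5 tested stomatal lineage markers 2 were called lower and 0 higher by limma, also with edgeR at 0 higher and DESeq2 at 0 higher, and 0 were higher at an unadjusted p under 0.05. Their 6 genes summed to 217 to 224 normalized counts in hdl and 603 to 673 in WT, and MUTE was near 0 in both, with means of 3.2 in hdl and 4.07 in WT. EPF2, a peptide gene of early lineage cells, had 0 and 4.94 normalized counts in the hdl libraries, against 43.5, 42.3 and 15 in the WT libraries. It did not pass (limma adjusted p = 0.0753) and, like BASL, reached the filter on low values through its WT libraries only. SPCH at -0.91 and EPF1 at 0.28 overlapped between the groups and did not pass either. Of 4 genes of dividing cells 2 were called lower and 0 higher (0 higher also with edgeR, DESeq2 and at an unadjusted p under 0.05), and their sum was 668 to 884 in hdl and 1602 to 1643 in WT. Relative to TMM, POLAR per length stood at 1.2 and 0.929 in the hdl libraries, against 1.04, 0.973 and 0.748 in the WT libraries, so the ratio overlapped between groups. BRXL2 to TMM was 2.8 and 1.74 in the hdl libraries, against 2.43, 2.28 and 2.22 in the WT libraries, and overlapped as well. Relative to CDKB2;1, a mitotic kinase gene that was called lower, POLAR stood at 0.355 and 0.665 in hdl. In WT that ratio was 0.405, 0.27 and 0.333, and the groups overlapped. TMM was called lower too, so overlap of these ratios was likely in advance and is a description only. Ratios to marker genes that were not called were not taken. Whether fewer lineage cells or less of each transcript per cell lies behind the lower POLAR and BRXL2 levels cannot be told apart in these bulk samples.

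The sorted cells carried their labelled markers and those of other tissues. Among all tested genes limma called 8.21% higher and 4.5% lower, edgeR 7.97% and 4.08%, and DESeq2 12.8% and 10.6%. At an unadjusted p under 0.05 limma had 16.6% higher and 15.4% lower. Of 7 epidermal markers limma, edgeR and DESeq2 each called 4 higher in hdl and 0 lower (0 lower at an unadjusted p under 0.05). With limma these were LTP1, CER6, FDH and PDF2. The list summed to 59671 to 66983 in hdl and 21799 to 24493 in WT. Its largest means were LTP1 at 29181.8 in hdl and 6087.6 in WT, and CER6 at 15217.8 and 4452.0. The sum leans on these genes and is not a measure of the share of epidermal cells. ATML1, the source of the sorting promoter, had 3561.5 and 3521.9 normalized counts in hdl, against 2549.0, 4182.6 and 2581.9 in WT, and the groups overlapped. ACR4 at 0.21 overlapped as well, and neither gene passed. The epidermal marker PDF1 at -0.21 and the mesophyll marker CAB1 at -0.13 pointed the other way from their lists and did not pass. Of 6 mesophyll markers limma called 2 higher, edgeR 4 and DESeq2 5, with 5 at an unadjusted p under 0.05, and the list summed to 831467 to 863034 in hdl and 523761 to 628498 in WT. Of 7 vascular markers limma called 4 lower, edgeR 4 and DESeq2 5. The list summed to 25866 to 28354 in hdl and 45546 to 75888 in WT, with its largest values in SEOR1 and XCP2. SUC2 at 0.39 and SWEET11 at 0.46 pointed the other way and did not pass. Guard cell markers summed to 530 to 741 in hdl and 807 to 942 in WT, with 0 of 7 called by limma, edgeR or DESeq2. At an unadjusted p under 0.05, 1 was higher, MYB60 at 0.68, and 1 lower, SLAC1 at -2.50. The part of these shifts in the values of the 9 genes was not tested.

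By Pearson's r of log2 levels over the 5 libraries, the genes most like BRXL2 were AT1G67720 (0.9997), AT5G47660 (0.9992) and HSP101 (0.9992). For POLAR they were ELP2 (0.9979), DAG2 (0.9978) and AT2G47350 (0.9977). For BASL they were EMB2771 (0.9989), AT4G14520 (0.9988) and TLP10 (0.9976), none of them called. BASL's profile rests on 6 and 0 recovered reads in hdl. Of 16925 genes with a mean of at least 50 normalized counts 113 exceeded 0.99 with BRXL2 and 61 with POLAR. With BASL 17 of 16926 did. The points share libraries and depth, so these are descriptions only.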

How the data were processed

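The members and gene lists were chosen with earlier results of these data known. RNA was extracted from about 20000 sorted cells per sample, and TruSeq libraries were made from 10 to 20 ng, per the labels. Per the submitters' processing notes the build was TAIR10 and tools included Trimmomatic 0.33, Bowtie2 2.5.0, SAMtools 1.16.1 and DESeq2. Neither the read counter nor its strand setting is known here. The authors deposited one normalized signal per gene and library, DESeq2-normalized counts by the file's name. The other deposited table, of raw counts for features that include none of these genes, was not used here. The level of HOMEODOMAIN-LIKE itself was not analysed here.

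In each library 100% of values were whole multiples of 1 step within 0.01, and division gave 18316092 and 19741801 reads in hdl replicates 1 and 2, and 18929251, 15418154 and 22838239 in WT replicates 1, 2 and 3. In a single library, not identified by the files, a step may stand for 2 counts of the authors, which leaves normalized values as they are. limma 3.58.1 (R 4.3.3) with an intensity trend tested log2(value + 1) for genes that reached 10 normalized counts in 2 or more libraries, in a fit of all 5 libraries with no covariate. The added 1 draws fold changes of low genes toward 0, but a library at 0 can enlarge them, and BASL stood at -2.79, against -2.38 with edgeR. edgeR 4.0.16 (2457 genes called) and DESeq2 1.42.0 (4771 called) ran on the recovered reads as alternatives. Other alternatives changed scaling, filter, pseudocount, trend, libraries, block and gene set. Scripts were tested on simulated data. Gene coordinates, transcripts and promoters come from RefSeq TAIR10.1; the files hold no coordinates. The text names all 9 members, up to 4 further called genes per list with the smallest p, otherwise the 2 most abundant, and the 3 genes most like each polarity gene. Genes of the marker lists were named after their values were seen.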

Additional observations from a re-analysis of the deposited data

How the results depend on the processing

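Without one library, 0 to 3574 genes were called higher and 0 to 2295 lower, 0 to 2 of the 9 genes higher and 0 to 2 lower, and 0 to 7 other family genes higher and 0 to 12 lower. Such fits moved BRXL2 between -1.578 and -1.38, POLAR between -1.29 and -1.09, MKK5 between 0.39 and 0.50, MPK3 between 0.66 and 0.99, YDA between -0.045 and 0.099, MPK6 between -0.025 and 0.105, MEKK1 between -0.026 and 0.147 and MAPKKK5 between -0.142 and 0.188; the cause was not tested. Higher and lower calls numbered 2619 and 2152 with DESeq2, 994 and 2553 with equal totals, and 679 and 467 without an intensity trend. Other family genes were then called 12 lower with DESeq2, 1 higher and 15 lower with equal totals, and 1 higher and 2 lower without the trend. DESeq2 called 1 of the 9 genes higher, MPK3 (0.76). Equal totals gave YDA -0.29, MKK4 -0.077, MPK6 -0.28, BSL1 -0.20, BSL2 -0.13, BSL3 -0.003, MEKK1 -0.26 and MAPKKK5 -0.30. Without genes overlapping the opposite strand 1 of the 9 genes was called lower, since POLAR was not tested. With the replicate number as a block, limma called 0 genes higher and 0 lower, hence 0 of the 9 genes (0 higher also without the block) and 0 and 0 of the other family genes, with POLAR at -1.21, BRXL2 at -1.38, MPK6 at -0.025 and MEKK1 at -0.026. Deviations of same-numbered libraries correlated at 0.00477 and -0.0123. The deviations of 2 hdl libraries mirror each other, so these values cannot decide whether same-numbered libraries were prepared together. In the block fit 1 residual degree of freedom remains. BASL is limited by depth, and 9 settings kept POLAR's side of the threshold and 12 kept BRXL2's.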
